A study of Mus musculus with 4 samples.

Results

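Hox genes encode homeodomain transcription factors that assign position along the head-to-tail axis of the embryo and along the limb. On the 4 arrays of the series, 50 of 41174 non-control probes carried the name of a Hox gene (Hoxa, Hoxb, Hoxc or Hoxd followed by a number), printed in 59 of 43379 non-control spots. These probes covered 38 of 27674 gene names. Members were chosen by name, so no measured value decided which genes entered. The HoxA cluster on chromosome 6 had 11 genes and 14 probes. The HoxB cluster on chromosome 11 had 10 genes and 15 probes between bases 96057368 and 96228510 on mm9. The HoxC cluster on chromosome 15 had 8 genes and 9 probes between bases 102758794 and 102866583, and the HoxD cluster on chromosome 2 had 9 genes and 12 probes between bases 74508005 and 74603059. Cluster members with no probe of their name were not analysed here.

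Limb and brain came from E13.5 mouse embryos on a mixed 129 and C57BL/6 background. In the conditional knockout (CKO) groups Rest, the gene of a zinc finger repressor of neuronal genes, was ablated through floxed alleles and a doxycycline-inducible Cre. The other groups were labelled wild type (WT). Doxycycline from E8.5 to E13.5 is recorded for all 4 samples, WT included. The groups were CKO limb, WT limb, CKO brain and WT brain, with 1 array each, so no within-tissue difference between CKO and WT has a replicate error. The promoter that drove Cre, the floxed part of Rest, whether forelimbs, hindlimbs or both were taken, and whether an RNA came from 1 embryo or several are not given in the sources used here.

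Hox genes are numbered by paralog group. Low-numbered paralogs lie toward the 3′ end of a cluster and are active earlier and further forward in the hindbrain and neck, and high-numbered paralogs toward the 5′ end are active further back. In the nervous system, Hox expression ends at the hindbrain, and the forebrain and midbrain lack it. In the limb, members of the HoxA and HoxD clusters with high numbers pattern first the upper arm, then the forearm and then the digits. Polycomb proteins keep silent the part of a cluster that a tissue does not use, and retinoic acid and Cdx factors help to open it.

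All levels below are log2 signals minus the array's own 75th percentile of log2 signal, so 0 is that percentile. Detected means called well above background by the scanner software. Array signals at the 75th percentile ran from 777 to 1002, and between 62.7% and 70.7% of spots were well above background, with both CKO arrays above the WT array of the same tissue. The lowest level well above background was -5.76 in CKO limb, -4.95 in WT limb, -6.19 in CKO brain and -5.36 in WT brain. Across probes printed 10 times on each array and detected on both, the SD of the CKO minus WT difference between spots had a median of 0.078 in limb over 183 probes and 0.079 in brain over 175, and the 95th percentiles were 0.244 in limb and 0.190 in brain. Dim probes, with a mean of the 2 arrays below -4, had a median of 0.242 in limb and 0.240 in brain. Labelling and embryo-to-embryo differences lie outside this error. The 3 probes of Rest, the targeted gene, were 4.03-fold, 17.2-fold and 15.7-fold lower in CKO limb and 1.88-fold, at least 6.60-fold and 11.9-fold lower in CKO brain. Brain arrays detected 16 of 16 forebrain and midbrain markers, and limb arrays detected 13 of 13 mesenchyme markers. Each brain array also detected 12 of the 13 mesenchyme markers. Of the 16 forebrain and midbrain markers, 8 were detected in CKO limb and 7 in WT limb, so detection alone did not separate the tissues. In bulk tissue, fewer expressing cells and less RNA per cell cannot be told apart.

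Most Hox genes were detected in limb, and the set detected in brain stopped near paralog 9. Of 38 genes, 35 were detected in CKO limb, 35 in WT limb, 23 in CKO brain and 21 in WT brain. Among the 12 genes of paralogs 1 to 4, 11 were detected on each brain array and 10 on each limb array. Among the 11 genes of paralogs 5 to 8, 9 were detected on each brain array and 11 on each limb array. Among the 15 genes of paralogs 9 to 13, 3 were detected in CKO brain, 1 in WT brain and 14 on each limb array. No gene of paralogs 10 to 13 was detected on a brain array. Levels of different probes are not comparable with each other, so all comparisons are between arrays within a gene.

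**Figure D1:**
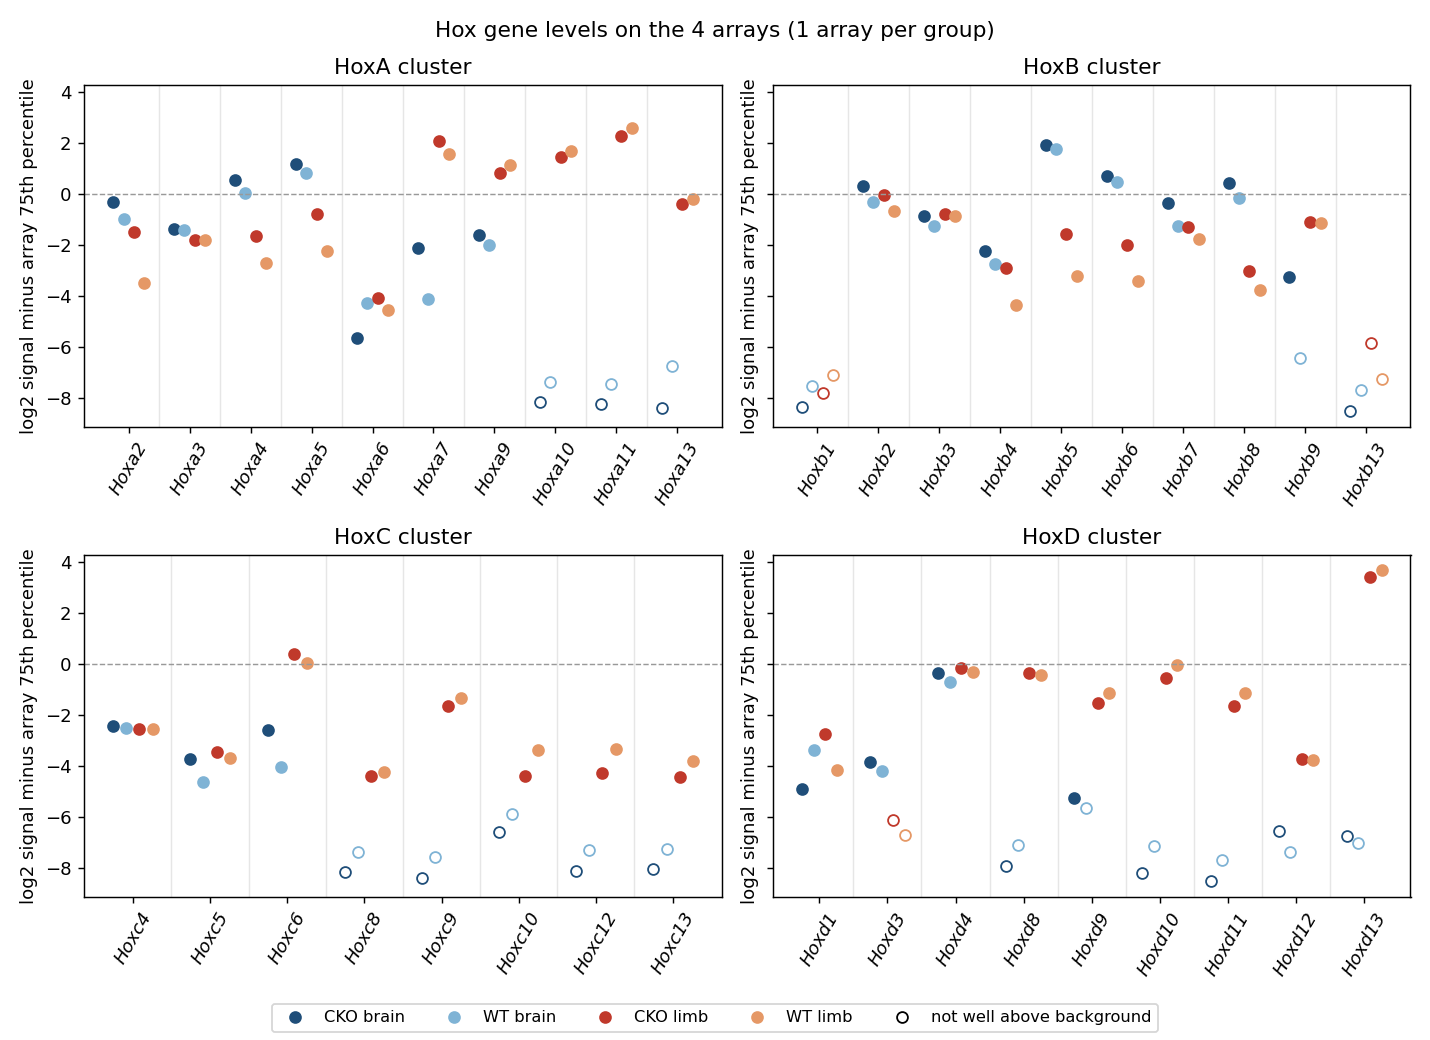
Levels of Hox genes on the 4 arrays, by cluster and in order of paralog number. The vertical axis is log2 signal minus the array's 75th percentile, each point is 1 array, and open points were not well above background. Points may be compared within a gene and not between genes. Brain points of paralogs 10 to 13 are all open, whereas limb points of those genes are filled except for Hoxb13.

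Hoxb1 and Hoxb13 were detected on no array. Hoxb1, which marks a single hindbrain segment early in development, was printed in 10 spots, none well above background, at -7.77 ± 0.28 in CKO limb, -7.06 ± 0.14 in WT limb, -8.32 ± 0.14 in CKO brain and -7.51 ± 0.12 in WT brain (SD over 10 spots of 1 array, 9 in CKO brain). Hoxb13, a gene of the tail end, had -5.84 in CKO limb, -7.24 in WT limb, -8.48 in CKO brain and -7.65 in WT brain, none called well above background. Hoxd3 was detected in brain and not in limb.

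The homeobox is shared by all these genes, so the probe sequences were compared with each other. Transcripts outside the probes were not searched, so whether a probe picks up RNA of another Hox gene was not tested. Among 1213 pairs of probes of different Hox genes, each 60 bases long, the median longest shared run was 6 bases, and 1 pair shared a run of 15 or more. The pair with the most matched bases without gaps, 40 of 60, was Hoxb13 at chr11:96057368-96057427 (mm9, plus strand) and Hoxa13 at chr6:52209015-52209074 (mm9, minus strand), compared with a shift of 2 bases and with matched bases in capitals:
Hoxb13: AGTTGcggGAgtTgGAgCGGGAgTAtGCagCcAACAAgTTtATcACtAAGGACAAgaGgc
Hoxa13: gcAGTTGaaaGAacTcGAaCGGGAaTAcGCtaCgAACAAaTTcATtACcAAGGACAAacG
Hoxa13 stood at -0.39 in CKO limb and -0.19 in WT limb, and Hoxb13 was not detected on the same arrays.

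Hox genes of high paralog number were lower in brain than in limb, and those of lower number went both ways. In brain against limb, 7 of 36 genes were at least 2-fold higher in CKO (19.4%, against a background of 15.1% over 19729 genes) and 7 of 36 in WT (19.4%, against 15.9% over 18453 genes). At least 2-fold lower in brain were 21 genes in CKO (58.3%, background 16.9%) and 19 in WT (52.8%, background 18.8%). The median brain minus limb difference was -1.81 over these Hox genes in CKO and -1.34 in WT, against -0.01 in CKO and -0.0011 in WT over all genes. These medians include genes detected in 1 tissue alone. Among genes detected in both tissues of a genotype the Hox median was 0.014 in CKO (22 genes) and 0.385 in WT (20 genes). Fitted over all 4 arrays with limma (tissue and genotype as terms, 20010 genes, Benjamini-Hochberg adjustment), 10 of 36 Hox genes passed as higher in brain (background 29.8%) and 19 as lower (background 30.8%). That fit has 1 residual degree of freedom per gene, and its error is the difference between the genotypes in the tissue effect. For a gene not detected in a tissue, the adjusted p rests on signals there that were not well above background.

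All 14 genes of paralogs 9 to 13 that could be compared were at least 2-fold lower in brain than in limb, in CKO and in WT. Of these, 3 in CKO and 1 in WT were detected in both tissues. The others entered through limb alone, and such a bound cannot come out higher in brain, so their direction was fixed beforehand. With normexp background correction all 14 were still below 0, but 10 reached 2-fold in each genotype, without Hoxc10, Hoxc12, Hoxc13 and Hoxd12, and with the mean of all probes 13 did, without Hoxc10. Hoxd13, which shapes the digits and is mutated in human synpolydactyly, was not detected in brain and had 3.40 in CKO limb and 3.65 in WT limb, so it was at least 769-fold lower in CKO brain and at least 517-fold lower in WT brain (limma adjusted p = 0.00246). Hoxa11, needed with Hoxd11 for the forearm bones, was not detected in brain and had 2.26 in CKO limb and 2.56 in WT limb, which makes it at least 350-fold lower in CKO brain and at least 242-fold lower in WT brain (limma adjusted p = 0.00246). Hoxa10, which acts in the upper limb segment, had 1.45 in CKO limb and 1.67 in WT limb and was at least 199-fold lower in CKO brain and at least 131-fold lower in WT brain. Both limb arrays stood far above both brain arrays for these genes, and 30.8% of all genes passed as lower in brain in the limma fit. Normexp correction gave smaller brain minus limb bounds, -7.31 log2 in CKO and -7.29 in WT for Hoxd13 (against -9.59 in CKO and -9.01 in WT as reported), -6.01 in CKO and -5.92 in WT for Hoxa11, and -5.15 in CKO and -5.01 in WT for Hoxa10.

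The other genes of that class not detected in brain differed in the size of the bound, and their direction was fixed by detection in limb alone. Hoxa13, a digit gene, was at least 55.9-fold lower in CKO brain and at least 36.1-fold lower in WT brain. Hoxd10 was at least 49.8-fold lower in CKO brain and at least 39.3-fold lower in WT brain, and Hoxd11 at least 23.4-fold lower in CKO brain and at least 18.4-fold lower in WT brain. Hoxc9 was at least 23.3-fold lower in CKO brain and at least 16.4-fold lower in WT brain. Smaller bounds came from genes of low level in limb. Hoxd12 was at least 5.55-fold lower in CKO brain and at least 3.03-fold lower in WT brain, with limb levels of -3.72 in CKO and -3.76 in WT, and the bounds of Hoxc10, Hoxc12 and Hoxc13 ran from 2.95-fold to 4.13-fold. With normexp, the bounds of Hoxa13, Hoxd10, Hoxd11 and Hoxc9 shrank to between -3.63 log2 (Hoxa13 in CKO) and -2.49 log2 (Hoxc9 in WT).

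Paralog 9 was the class in which some transcripts remained detectable in brain. Hoxa9 had -1.61 in CKO brain and -2.0 in WT brain, against 0.80 in CKO limb and 1.14 in WT limb, a fitted brain minus limb difference of -2.78 ± 0.23 log2 (SE, 4 arrays; limma adjusted p = 0.00595). Hoxd9 had -5.26 in CKO brain, was not detected in WT brain, and had -1.52 in CKO limb and -1.15 in WT limb. Hoxb9, which acts on thoracic rib identity, had -3.23 in CKO brain, was not detected in WT brain, and had -1.09 in CKO limb and -1.16 in WT limb. The tissue difference of Hoxb9 lay at the threshold (limma adjusted p = 0.0498).

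Paralogs 5 to 8 went both ways between the tissues, also within the HoxA cluster. Hoxb5, which helps to position the shoulder girdle, had 1.90 in CKO brain and 1.74 in WT brain, against -1.58 in CKO limb and -3.21 in WT limb, 11.1-fold higher in CKO brain and 30.9-fold higher in WT brain (limma adjusted p = 0.00897). Hoxb6 had 0.71 in CKO brain and 0.46 in WT brain, against -1.98 in CKO limb and -3.42 in WT limb. Hoxb8, known from studies of blood progenitors and of grooming in mice, had 0.43 in CKO brain and -0.17 in WT brain, against -3.00 in CKO limb and -3.76 in WT limb, a fitted difference of 3.51 ± 0.09 log2 (limma adjusted p = 0.00248), which was 2.14 log2 with the mean of its probes and still passed. Hoxa5, needed for the lung and the lower neck skeleton, had 1.15 in CKO brain and 0.82 in WT brain, against -0.80 in CKO limb and -2.24 in WT limb. The brain arrays were above both limb arrays for each of these 4 genes. How many of all genes separate in this way was not counted, and 29.8% of all genes passed as higher in brain in the limma fit.

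Hoxa7 and Hoxc6, which belong to the same numbers, ran the other way. Hoxa7 had -2.12 in CKO brain and -4.11 in WT brain, against 2.08 in CKO limb and 1.57 in WT limb, 18.4-fold lower in CKO brain and 51.1-fold lower in WT brain (limma adjusted p = 0.00682). Hoxc6, a marker of the forelimb level in spinal motor neurons, had -2.60 in CKO brain and -4.01 in WT brain, against 0.39 in CKO limb and 0.04 in WT limb (limma adjusted p = 0.0072). Hoxd8 was not detected in brain and was at least 57.5-fold lower in CKO brain and at least 30.0-fold lower in WT brain. Hoxc8, dim in limb, was at least 3.52-fold lower in CKO brain and at least 2.17-fold lower in WT brain. Hoxb7 was higher in brain by 0.73 ± 0.15 log2 (limma adjusted p = 0.0338), with the 4 levels between -1.75 and -0.34. The tissue difference of Hoxa6 did not pass (limma adjusted p = 0.411), nor did that of Hoxc5 (limma adjusted p = 0.146).

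Among paralogs 1 to 4, the genes of the neck and hindbrain, the tissue differences varied in size. Hoxa4, which acts on neck vertebrae, had 0.55 in CKO brain and 0.04 in WT brain, against -1.65 in CKO limb and -2.70 in WT limb (fitted difference 2.47 ± 0.17 log2, limma adjusted p = 0.00484). Hoxa2, which sets the identity of the second pharyngeal arch, had -0.30 in CKO brain and -0.97 in WT brain, against -1.48 in CKO limb and -3.50 in WT limb (limma adjusted p = 0.0376). Both genes had brain and limb arrays that did not overlap, and how many of all genes do so was not counted.

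Hoxa3, which builds the thymus and parathyroid, was higher in brain by 0.42 ± 0.08 log2 (limma adjusted p = 0.0311), and Hoxb2 by 0.37 ± 0.06 (limma adjusted p = 0.0204). Hoxd3 was detected in brain alone, at -3.85 in CKO and -4.18 in WT (limma adjusted p = 0.012). That p rests on limb signals not well above background, and the brain minus limb bounds were 1.91 log2 in CKO and 0.77 in WT. Hoxb3, Hoxb4, Hoxc4, Hoxd1 and Hoxd4 did not pass, with adjusted p between 0.051 and 0.542 in limma. Hoxb4 had brain minus limb differences of 0.70 log2 in CKO and 1.59 log2 in WT, and missed the threshold at 0.051. Without the variance trend in limma, Hoxa2, Hoxb7 and Hoxb9 no longer passed. Hoxb9 also did not pass with quantile normalization, and neither Hoxb9 nor Hoxd3 with the mean of all probes, nor Hoxd3 with normexp background correction.

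**Figure D2:**
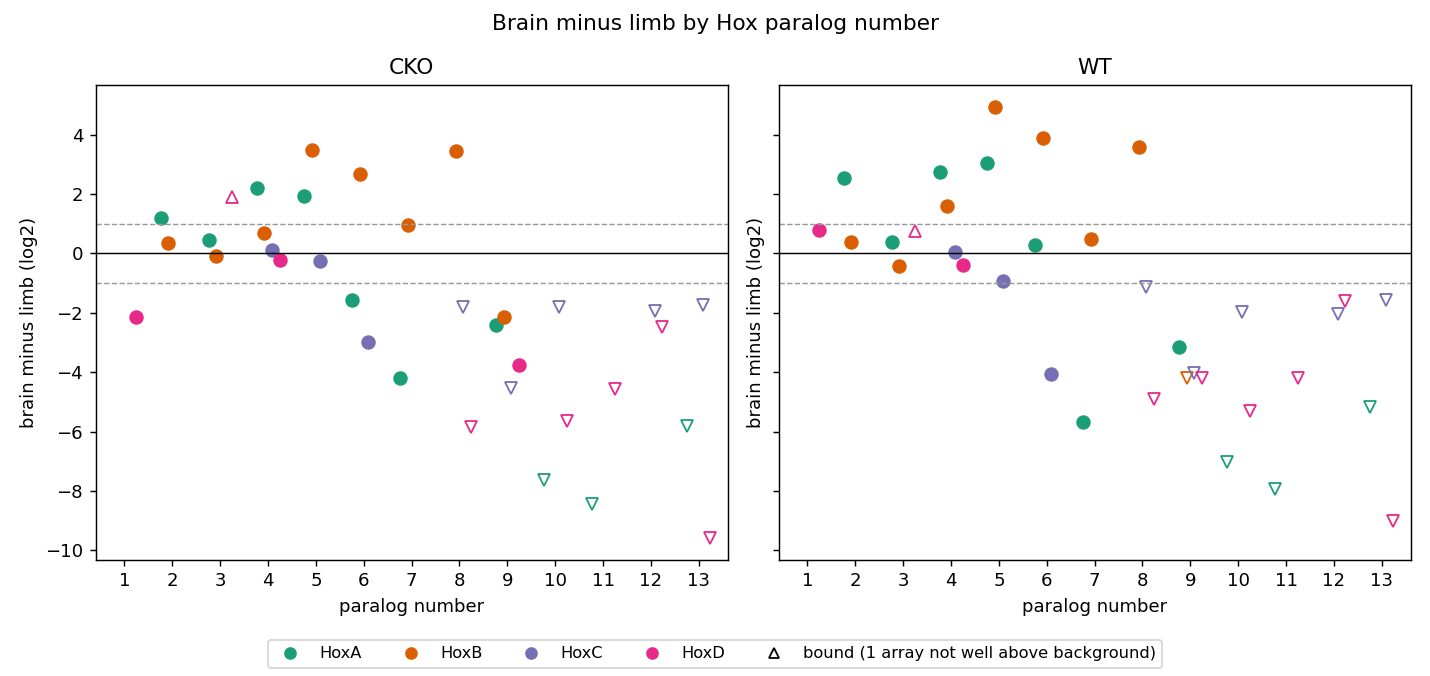
Brain minus limb differences of Hox genes by paralog number, with CKO in the left panel and WT in the right panel. The vertical axis is log2, colours mark the 4 clusters, triangles are bounds where 1 array was not well above background, and dashed lines mark 2-fold. All points of paralogs 9 to 13 lie below the lower dashed line, while paralogs 2 to 8 spread to both sides.

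Rest loss and Hox genes in limb were compared by size, as 1 array against 1. Genes of low paralog numbers mostly stood higher in CKO limb, and genes of high numbers, the limb-patterning ones among them, mostly stood slightly lower. Of 35 Hox genes compared, 7 were at least 2-fold higher in CKO limb (20.0%, against a background of 2.49% over 18470 genes) and 1 was at least 2-fold lower (2.86%, background 2.15%). The 7 were Hoxa2, Hoxa4, Hoxa5, Hoxb4, Hoxb5, Hoxb6 and Hoxd1, and the 1 was Hoxc10. The median CKO minus WT difference was 0.07 log2 over the Hox genes and -0.02 over all genes. Among paralogs 1 to 8, 19 of 21 genes had a difference above 0, with a median of 0.51. Among paralogs 9 to 13, 12 of 14 had one below 0, with a median of -0.33. Over all 18470 genes, 40.05% had a difference above 0.

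By cluster, the same counts were uneven. In HoxB, 8 of 8 compared genes were above 0 in limb, from 0.06 for Hoxb9 to 1.63 for Hoxb5. In HoxA, 6 of 11 were above 0, in HoxC 3 of 8 and in HoxD 4 of 8. These limb arrays also enter the brain minus limb differences above, so both sets of values share data.

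Hoxa2 was 4.06-fold higher in CKO limb, at -1.48 in CKO limb and -3.50 in WT limb. Hoxa5 and Hoxb6 were each 2.71-fold higher, Hoxb4 was 2.67-fold higher, and Hoxb5 had a difference of 1.63 log2. Hoxb4, a neck-level gene also used in blood stem cell work, had -2.91 in CKO limb and -4.33 in WT limb. All of these genes were detected on both limb arrays. Hoxd1, which in mice acts in pain-sensing neurons, was 2.68-fold higher, at -2.74 in CKO limb and -4.17 in WT limb. Hoxa4 was 2.07-fold higher and lay close to the 2-fold line. Hoxc10, expressed at the hindlimb level, was 2.01-fold lower, at -4.38 in CKO limb and -3.38 in WT limb, and Hoxc12 just missed the line at 1.94-fold lower. Hoxc10 and Hoxc12 had mean limb levels of -3.88 and -3.79, near the level of -4 below which the spot error was larger. Hoxb4 and Hoxd1, with -3.62 and -3.45, were not far from it. With normexp background correction, Hoxa4 (0.70 log2), Hoxb4 (0.59), Hoxb6 (0.91), Hoxd1 (0.68) and Hoxc10 (-0.52) no longer reached 2-fold. With the mean of all probes of a gene, Hoxa4 (0.95), Hoxb6 (0.61) and Hoxc10 (-0.62) did not.

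Several anterior genes differed less. Hoxb8 was 1.69-fold, Hoxb2 1.54-fold, Hoxa7 1.42-fold, Hoxa6 1.39-fold and Hoxb7 1.37-fold higher in CKO limb. With the mean of its probes Hoxb8 had -0.05 log2, so its direction turned, and Hoxa6 had 0.004 log2 with normexp. Hoxc4 differed by 0.01 and Hoxb3 by 0.07 log2, and Hoxa3 by less than either, all within the median spot error. The limb-patterning genes were near each other. Hoxd13 was 1.20-fold, Hoxa11 1.23-fold, Hoxa10 1.17-fold, Hoxa13 1.15-fold and Hoxa9 1.27-fold lower in CKO limb, while Hoxd10 and Hoxd11 were each 1.40-fold lower. Hoxd12, at 0.04 log2, and Hoxb9, at 0.06 log2, were the 2 genes of this class above 0, and Hoxd12 had -0.06 with normexp.

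**Figure D3:**
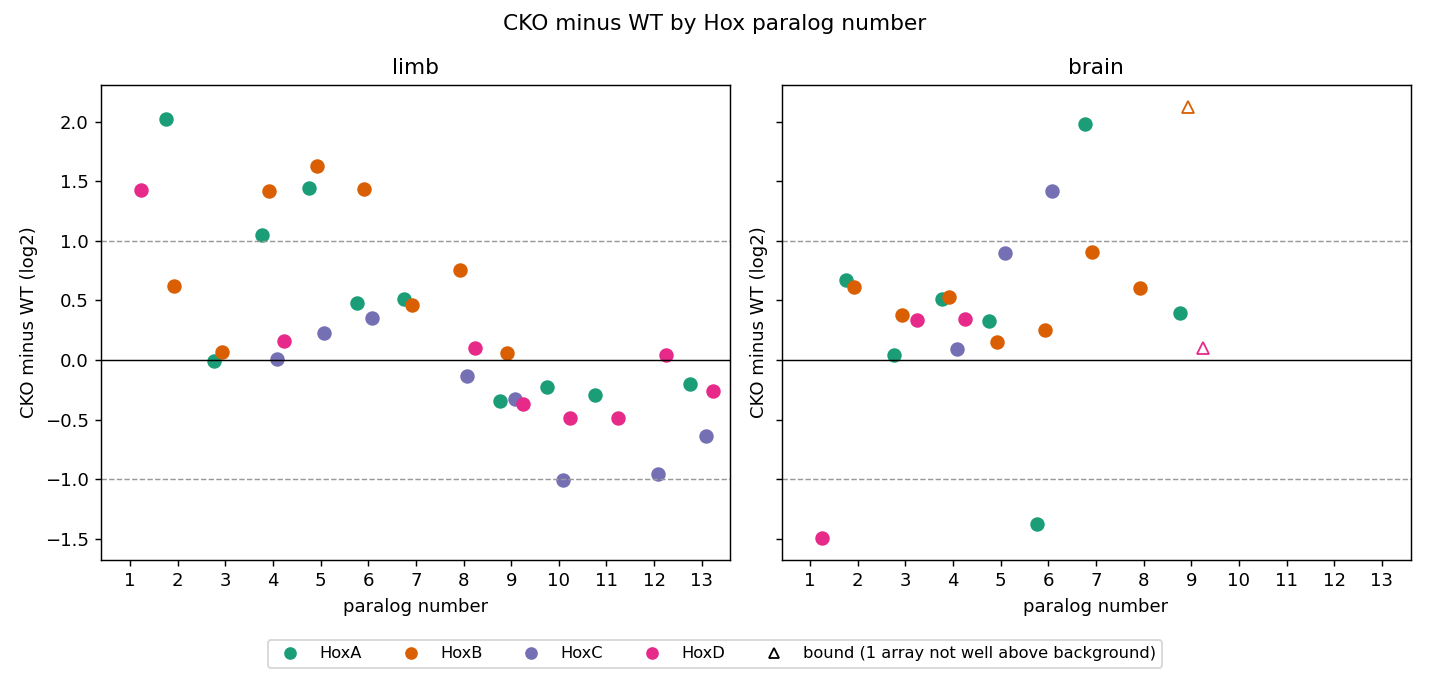
CKO minus WT differences of Hox genes by paralog number, in limb at the left and in brain at the right. The vertical axis is log2, colours mark clusters, triangles are bounds, and dashed lines mark 2-fold. In limb the points of paralogs 1 to 8 lie mostly above 0 and those of 9 to 13 mostly below, and in brain most points lie above 0.

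RefSeq promoters on GRCm38.p6 were at hand for 22 of the 38 genes (24 promoters, windows that lie mostly upstream of the annotated start), and for 4 of the 7 genes higher in CKO limb. Those 4 are shown because Rest binds DNA at an element called RE1, made of a left and a right part, and because Meis, Pbx, retinoic acid receptors and Cdx factors are known to act on Hox genes. Searched on both strands were the left part of RE1 (TTCAGCACC), its right part (GGACAG), a Meis core (TGACAG), a Pbx-Hox core (TGATNNAT), a retinoic acid receptor core (AGGTCA) and a Cdx core (TTTATG). Capitals mark every match, read in the direction of the gene. The windows are Hoxa2 at chr6:52164782-52165081 (minus strand), Hoxa5 at chr6:52204538-52204837 (minus strand), Hoxb4 at chr11:96318017-96318316 (plus strand) and Hoxd1 at chr2:74762730-74763029 (plus strand).
Hoxa2: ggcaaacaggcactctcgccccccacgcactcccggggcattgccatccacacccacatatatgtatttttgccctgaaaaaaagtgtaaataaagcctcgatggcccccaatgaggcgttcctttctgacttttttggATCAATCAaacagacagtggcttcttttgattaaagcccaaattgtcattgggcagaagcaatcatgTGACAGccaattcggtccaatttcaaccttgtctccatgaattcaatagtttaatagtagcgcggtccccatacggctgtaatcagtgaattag
Hoxa5: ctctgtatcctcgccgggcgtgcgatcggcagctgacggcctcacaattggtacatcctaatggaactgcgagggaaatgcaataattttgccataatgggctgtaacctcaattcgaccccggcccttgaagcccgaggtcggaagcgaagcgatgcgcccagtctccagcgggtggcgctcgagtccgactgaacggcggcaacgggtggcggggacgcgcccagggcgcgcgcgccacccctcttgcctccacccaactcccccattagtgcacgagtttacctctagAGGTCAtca
Hoxb4: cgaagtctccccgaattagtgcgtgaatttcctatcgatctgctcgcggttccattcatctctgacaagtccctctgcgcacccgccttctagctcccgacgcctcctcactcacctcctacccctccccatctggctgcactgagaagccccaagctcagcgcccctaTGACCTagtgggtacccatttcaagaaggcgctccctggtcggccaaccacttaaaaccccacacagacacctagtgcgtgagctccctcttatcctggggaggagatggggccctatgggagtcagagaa
Hoxd1: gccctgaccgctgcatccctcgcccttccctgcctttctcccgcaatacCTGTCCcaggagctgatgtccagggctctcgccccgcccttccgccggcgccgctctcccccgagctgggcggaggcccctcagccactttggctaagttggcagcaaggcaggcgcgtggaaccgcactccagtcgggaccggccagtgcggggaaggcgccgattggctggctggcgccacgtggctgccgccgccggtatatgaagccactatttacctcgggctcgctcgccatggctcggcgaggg
Hoxa2 held a Meis and a Pbx-Hox core, Hoxa5 and Hoxb4 a retinoic acid receptor core each, and Hoxd1 the right part of RE1. The left part of RE1 stood in 1 of 24 Hox promoters (4.17%, Hoxd12), against 0.371% of 32851 promoters. Its right part stood in 3 (12.5%, against 22.2%), the Meis core in 2 (8.33%, against 19.2%), the Pbx-Hox core in 4 (16.7%, against 8.85%), the retinoic acid receptor core in 7 (29.2%, against 16.3%) and the Cdx core in 5 (20.8%, against 11.9%). A match describes letters in a window and is not evidence of binding.

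Markers of other cell types also moved with genotype in limb. Of 10 neuron markers, which include well-known Rest targets, 7 were at least 2-fold higher in CKO limb (background 2.49%), with a median difference of 2.30. Their summed signal was 3.66 in CKO limb and 1.71 in WT limb on the log2 scale. Of 20 hindbrain and spinal cord markers, 7 were detected in CKO limb and 4 in WT limb. None of the 7 compared differed 2-fold. Gata2 (-0.73 log2) and Gata3 (-0.66) were lower in CKO limb, and Lbx1 (0.55) and Slc5a7 (0.37) were higher. Evx1, Tph2 and Fev were detected in CKO limb alone. The summed signal, in which Gata2 and Gata3 weigh most, was 0.94 in CKO limb and 1.51 in WT limb. The rest of that list, with Mnx1, Lhx3, Phox2a, Olig2 and Nkx2-2 among them, was not detected on either limb array. Red cell markers were mostly lower in CKO limb, 6 of 11 at least 2-fold (background 2.15%) and 1 at least 2-fold higher, with a median of -1.08. For the neuron, hindbrain and spinal cord, and red cell markers, their part in the Hox differences was not tested.

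In brain, Hox genes mostly stood higher on the CKO array, again as 1 array against 1. Of 23 Hox genes compared, 3 were at least 2-fold higher in CKO brain (13.04%, background 1.37% over 18962 genes) and 2 at least 2-fold lower (8.70%, background 1.23%). The median difference was 0.39 over Hox genes and -0.01 over all genes. Above 0 were 21 of the 23 Hox genes and 41.9% of all genes compared.

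Hoxa7 was 3.95-fold higher, at -2.12 in CKO brain and -4.11 in WT brain. Hoxc6 was 2.66-fold higher, at -2.60 in CKO brain and -4.01 in WT brain. Hoxb9, not detected in WT brain, was at least 4.37-fold higher in CKO brain. These genes are among those that were lower in brain than in limb, as given above. Hoxb7 was 1.87-fold and Hoxc5 1.86-fold higher, under the 2-fold line, and Hoxc5 had 0.27 log2 with normexp. With normexp background correction, Hoxb9 (0.84 log2 as a bound) and Hoxc6 (0.76) no longer reached 2-fold, and of the genes lower in CKO brain, neither did Hoxa6 (-0.64) and Hoxd1 (-0.74).

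Hoxd1 and Hoxa6 stood the other way. Hoxd1 was 2.82-fold lower, at -4.88 in CKO brain and -3.38 in WT brain. Hoxa6 was 2.60-fold lower, at -5.64 in CKO brain and -4.26 in WT brain. Both genes were dim on these arrays. The 15 other genes measured on both brain arrays were between 1.03-fold higher (Hoxa3) and 1.59-fold higher (Hoxa2) in CKO brain as reported, and Hoxd9 was at least 1.07-fold higher. Hoxb5 was 1.11-fold, Hoxb6 1.19-fold and Hoxa5 1.26-fold higher. The limb-patterning genes Hoxa10, Hoxa11, Hoxa13 and Hoxd10 to Hoxd13 were not detected on either brain array.

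Cartilage markers moved with genotype in brain. Of 14, 12 were at least 2-fold higher in CKO brain (background 1.37%), with a median of 2.58. Their summed signal was 4.79 in CKO brain and 3.22 in WT brain. All 14 were detected in CKO brain, and 9 in WT brain. Of 12 mesenchyme markers compared, 6 were at least 2-fold higher in CKO brain (background 1.37%) and 1 at least 2-fold lower (background 1.23%). Their summed signal was 6.02 in CKO brain and 5.28 in WT brain. Hindbrain and spinal cord markers were 18 of 20 detected in CKO brain and 15 of 20 in WT brain, with a median difference of 0.07 over 19 compared. Of these, 0 were at least 2-fold higher in CKO brain and 1 at least 2-fold lower. That gene, Chat, stood at -3.01 in WT brain and was at least 9.06-fold lower in CKO brain, where it was not detected. The summed signals, in which Gata2 and Gata3 weigh most, were 2.63 in CKO brain and 2.58 in WT brain. Forebrain and midbrain markers had a median of -0.30, with summed signals of 6.27 in CKO brain and 6.62 in WT brain. The part of cartilage, mesenchyme, and hindbrain and spinal cord RNA in the Hox differences was not tested, and Mnx1 was not detected on any array.

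Across both tissues, 20 Hox genes were measured on all 4 arrays. Of these, 16 were higher in CKO in both tissues (80.0%, against 21.7% of 15642 genes), none was lower in both (39.3% of all genes), and 4 went opposite ways (39.0% of all genes). The limma fit over both tissues gave 0 of 20010 genes for CKO minus WT (background 0%), with a smallest adjusted p of 0.699. At an unadjusted p under 0.05 it gave 7 of 36 Hox genes higher and 0 lower, against 1133 genes (5.66%) of all in either direction. That split depended on the setting. Without the variance trend 4 were higher and 4 lower, with normexp 9 and 4, and with quantile normalization 5 and 2. Among the 7 were Hoxa2, Hoxa4, Hoxb2, Hoxb4, Hoxb7 and Hoxb8. Hoxb2, higher by 0.62 log2 in limb and 0.61 log2 in brain, had the smallest unadjusted p of the Hox genes, 0.00225 in limma, and an adjusted p of 0.699.

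For 12 genes there were 2 probes, which together spanned 219 to 3896 bases. Both probes were measured in limb for 7 genes, and 6 of these had the same sign. The 6 include Hoxb2, whose other probe lies on the opposite strand. Hoxb6 was the exception, with 1.44 at the probe of higher mean and -0.21 at the other (chr11:96160281-96160340), which is named from a different transcript. Among the genes at least 2-fold higher in CKO limb, Hoxb6 alone had both probes measured there. Hoxb3 had the same sign but unequal sizes, 0.07 at the probe of higher mean and 1.68 at the other (chr11:96209002-96209061), whose levels were -1.75 in CKO limb, -3.43 in WT limb, 0.40 in CKO brain and -0.34 in WT brain. The probe pairs of the limb-patterning genes lay closer, with -0.20 and -0.29 for Hoxa13, -0.37 and -0.18 for Hoxd9, and -0.26 and -0.24 for Hoxd13. The other Hoxb2 probe lies on the opposite strand (chr11:96211860-96211919), and its level cannot be read as Hoxb2 sense RNA. In brain, 4 genes had both probes measured and 3 had the same sign. A probe of Hoxd3 at chr2:74582531-74582590 was detected on the WT brain array alone, at -0.52, and was at least 50.9-fold lower in CKO brain, while the other probe of the gene was 1.26-fold higher there. With normexp the gene's CKO minus WT difference in brain was -3.33 log2, so its direction turned. Hoxa3 had -0.01 log2 in brain with normexp.

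**Figure D4:**
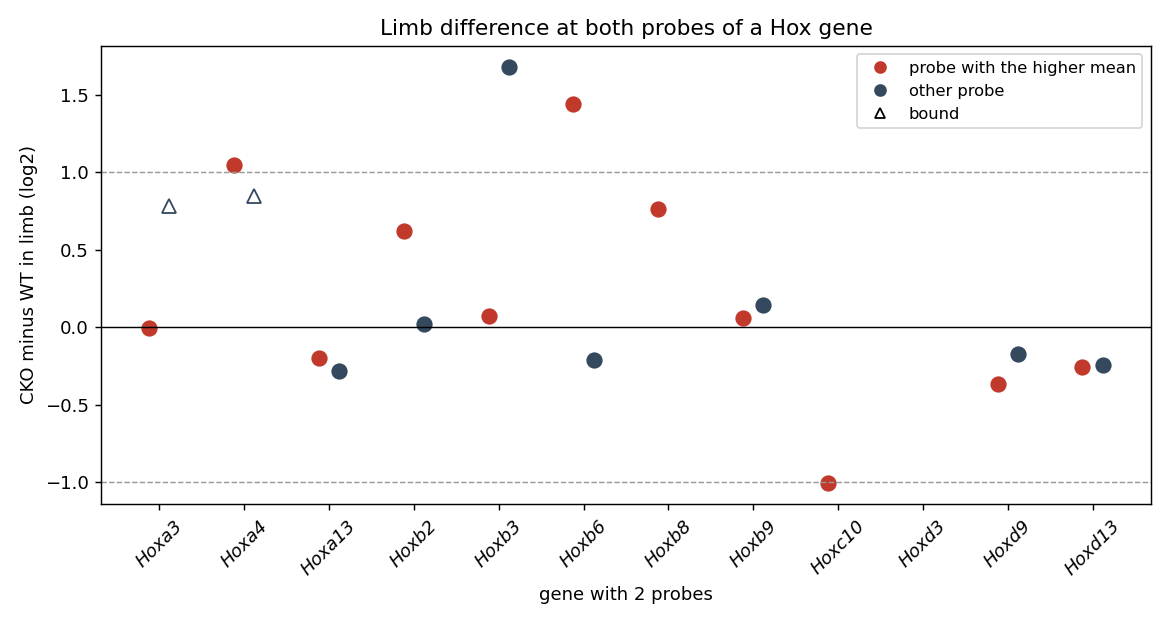
CKO minus WT difference in limb at both probes of the 12 Hox genes with 2 probes. The vertical axis is log2, red marks the probe with the higher mean over the 4 arrays, blue the other probe, and triangles are bounds. A missing point was not detected in limb, and the probes of Hoxb3 and of Hoxb6 lie more than 1.5 log2 apart.

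Genes that work with Hox proteins or control their clusters were read from lists chosen by function. Of the TALE cofactors (Pbx, Meis and Pknox), which bind DNA together with Hox proteins, 9 of 9 were detected on every array and 1 was at least 2-fold higher in CKO limb, Meis3, at -0.92 in CKO limb and -2.68 in WT limb (3.40-fold). Meis1 was 0.75 log2 higher in CKO limb and the other cofactors lay between -0.02 and 0.26. In brain the 9 lay between -0.20 and 0.35. Of 29 Polycomb and trithorax genes, 0 were at least 2-fold different between CKO and WT in limb and 0 in brain, with medians of -0.06 in both. Genes that flank the clusters gave 18 comparisons in limb, of which 0 reached 2-fold. Over all genes, 2.49% were at least 2-fold higher and 2.15% lower in CKO limb, and 1.37% and 1.23% in CKO brain. A count of 0 in lists of this length is near that background. Evx2, next to HoxD, differed by -0.98 log2.

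Of the Cdx, hindbrain and retinoic acid genes, 19 were compared in limb and 18 in brain, with medians of 0.10 in limb and 0.27 in brain. Aldh1a2, which makes retinoic acid, was 1.07 log2 higher in CKO limb, and Aldh1a3, a relative with the same activity, was 0.65 log2 higher in CKO limb and 1.35 log2 higher in CKO brain. In brain, the retinoic acid receptor gene Rarg was 0.87 log2 higher in CKO, and Cyp26a1, which breaks retinoic acid down, at least 0.77 log2 higher. Cdx1 and Cdx2 were not detected on any array. Limb patterning genes gave 21 comparisons in limb, of which 0 reached 2-fold, with a median of -0.07. That count too is near the background of 2.49% higher and 2.15% lower. In brain, 1 of 23 did, Msx2, at 1.02 log2 higher in CKO. The forelimb gene Tbx5 differed by -0.20 log2 in limb and the hindlimb genes Tbx4 and Pitx1 by -0.52 and 0.11 log2, all 3 being detected on both limb arrays.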

How the data were processed

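Total RNA of the 4 samples was labelled with Cy3 and hybridised to 1-colour Agilent arrays. The submitters' processing notes name Agilent Feature Extraction 9.5.3.1 for the scanner files. The deposited intensities used for levels were background-subtracted within each array, per the file headers, and the raw mean and background intensities, also deposited by the authors, served the alternative background correction. A deposited table held the same intensities rounded, with a largest gap of 0.0071 log2 over 45018 spots. Flagged outlier spots and controls were left out. From log2 signals the 75th percentile of the same array was subtracted, and the spots of a probe were averaged. A probe was well above background when more than 0.5 of its spots were. A gene was represented by its probe of highest mean over the 4 arrays. Where 1 array was below background, the difference was bounded by the lowest level well above background on that array, or by the probe's own level where higher. Bounds pointing the other way were set to 0.

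CKO was set against WT within a tissue by size (at least 2-fold), since 1 array per group allows no test. Tissue and genotype were also fitted over all 4 arrays with limma 3.58.1 (lmFit, eBayes with trend, R 4.3.3, adjusted p threshold 0.05). The same fit was run on simulated data with additive effects and independent errors. Such data cannot show whether its p-values hold for the real arrays. The 2 samples of each arm of that fit differ in the other factor, so its p-values measure only the spread between these 4 arrays. Tables and plots were made with pandas 2.3.3, numpy 2.4.6 and matplotlib 3.10.9 under Python 3.11.15. All Hox genes are accounted for. Full values are given for those at least 2-fold different between CKO and WT, those detected in brain, and the 3 brightest per cluster and tissue. From each list chosen by function at most 4 members with a difference of at least 1.5-fold were named, plus Rest, Tbx4, Tbx5 and Pitx1. Hindbrain and spinal cord markers were named outside this rule. Members and lists were chosen with earlier results of these data known. Alternatives were normexp (offset 50), quantile normalization, the percentile over detected probes, the mean of all probes, the rounded table, detection on every array, 1.5-fold and eBayes without trend. The number of arrays limits the precision. Some items that the counts include are not reported here by name, sequence or plotted point.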

Additional observations from a re-analysis of the deposited data

Results flagged for a closer look

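For 3 Hox genes, CKO minus WT had opposite signs in limb and brain, each beyond the 95th percentile of the spot error, and with 1 array per group the difference between the tissues was not tested. Hoxd1 stood at 1.42 log2 in limb and -1.49 in brain. Hoxa6 stood at 0.48 log2 in limb and -1.38 in brain. With normexp it had 0.004 in limb and -0.64 in brain, so the limb difference was near 0 there. Hoxa9 stood at -0.34 log2 in limb and 0.39 in brain.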

How the results depend on the processing

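With normexp background correction, Hox genes at least 2-fold different between CKO and WT numbered 4 higher and 0 lower in limb (429 of all genes in either direction, against 857) and 1 higher and 1 lower in brain (201 of all genes, against 492). Of the 7 genes higher in CKO limb, Hoxa2, Hoxa5 and Hoxb5 were still past 2-fold there, with Hoxb3, for which the other probe entered. The cause of the other shifts was not tested. Hoxc10 fell short of 2-fold in limb, leaving 0 lower, with the percentile over detected probes and with the mean of all probes, and that mean gave 5 higher in brain. At 1.5-fold, 3 Hox genes were lower in limb and 8 higher in brain, and all genes past the line numbered 1752 in limb, 1036 in brain, 9692 for brain minus limb in WT and 9944 in CKO. Requiring detection on both arrays, which drops genes dark in a tissue, gave 477 genes in limb and 239 in brain. In CKO, 8 of 22 Hox genes were then at least 2-fold lower in brain than in limb and 6 higher. Of all 17362 genes, 2656 were lower and 2410 higher. In WT, 4 of 20 Hox genes were lower and 7 higher, and of all 15673 genes 2527 were lower and 2172 higher. Detection on all 4 arrays left 4 of 20 Hox genes lower and 10 higher in the limma fit. Of all 15644 genes, 5542 passed as lower and 5283 as higher. The fitted brain minus limb difference reversed for Hoxb2 with the mean of probes (-1.07, which averages in the opposite-strand probe) and for Hoxb3 with normexp (2.11) and the mean of probes (1.18), where the other Hoxb3 probe enters. Among paralogs 1 to 8 in limb, between 18 and 20 of 21 genes were above 0, and among paralogs 9 to 13 between 12 and 13 of 14 were below 0, over the reported setting and 5 alternatives. Of the other values, 106 counts stayed within 1.5 times of the reported count, though not equal to it in each case. With normexp the Hox genes at least 2-fold lower in brain than in limb numbered 15 in CKO and 14 in WT. Of single-gene values, 497 kept their direction and their side of the threshold, 12 CKO minus WT values from the limma fit changed sign without passing, 20 values were no longer past the threshold and 5 newly passed. With 1 array per group there were no replicate numbers to block on, and genotype was a term in the limma fit of tissue. Signal near background limits the genes of low level, among them Hoxa6, Hoxb4, Hoxc10 and Hoxd1.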
